A study of Mus musculus with 12 samples.

Results

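The 9 transcription factor genes described here shape myeloid cells and were followed across chromatin accessibility maps of mouse bone marrow cells that the labels call bone marrow derived macrophages: Spi1, Cebpa, Cebpb, Klf4, Maf, Mitf, Tfec, Prdm1 and Bhlhe40. Every ATAC-seq peak whose nearest gene in the deposited annotation was 1 of these 9 was taken, which gave 314 of 139999 peaks. Maf had 80, Klf4 75, Prdm1 60, Mitf 50, Tfec 16, Cebpa 15, Spi1 11, Cebpb 5 and Bhlhe40 2. All but 1 of the 314 peaks (313) are 400 bp wide, and the farthest lies 601.9 kb from a start, near Klf4. Assignment is by distance alone, so a far peak need not act on the gene whose name it carries. ATAC-seq cuts open chromatin with a transposase, and the reads in a peak measure how accessible that stretch of DNA was.

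The 12 libraries fall into 6 groups of 2. First-phase groups are labelled diabetic and healthy, and rest- and second-phase groups diabetic-trained and untrained. All mice were male C57BL/6J aged 8 weeks. Those made diabetic received streptozotocin, a toxin of insulin-producing cells, at 42 to 45 mg/kg a day for 5 days, and glucose above 16.9 mmol/L counted as diabetes, followed by 6 weeks of hyperglycaemia. Rest-phase cells were grown from marrow progenitors for 7 days with M-CSF, the macrophage growth factor, in 5 mmol/L glucose. The second phase added 16 hours of LPS at 100 ng/mL and IFN-γ at 10 ng/mL, which drive inflammatory activation. The sources used here do not say how first-phase cells were obtained or whether the 2 libraries of a group came from separate animals, so p-values measure only how far libraries scatter, and that scatter may be technical. The deposited tables do not say which mean column is the diabetic group. The columns are called A and B, and A of one phase need not be A of another.

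PU.1, the product of Spi1, and the C/EBP factors bind enhancers of the myeloid lineage early and open them, and the dose of PU.1 relative to C/EBPα helps set whether a progenitor becomes a macrophage or a neutrophil. C/EBPβ acts in mature and activated macrophages, KLF4 in monocytes, and c-Maf in resident macrophages, where it holds back self-renewal. MITF and TFEC belong to the MiT family of basic helix-loop-helix factors and drive lysosomal and osteoclast genes. BLIMP1, encoded by Prdm1, and Bhlhe40 are repressors used by macrophages, osteoclasts and lymphocytes.

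Reads in peaks ran from 3832347 to 18617444 per library, and 6 of the 314 peaks had 0 reads in at least 1 library. No filter on low values was applied. In the rest phase group A was the deeper (18617444 and 16002834 reads, against 5459236 and 8775958). Levels are log2 of quantile-scaled reads plus 1, on 1 scale for all 12 libraries, and each peak is a region of similar width. Libraries A1 and A2 of the first phase were nearly as close as counting error allows (1.13 times its variance, where the other pairs had 2.11 to 8.92 times). They enter the tests between phases as a single averaged sample, so n is 3 for the first phase and 4 for the others.

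Libraries in 2 phases stood apart from their labels or their group. Peaks of 12 textbook targets of IFN-γ and LPS, among them Gbp2, Nos2 and Cxcl9 (a list chosen after values were seen), had summed log2 levels of 13.86 and 14.04 in second-phase libraries A2 and B2. Second-phase libraries A1 and B1 had 12.65 and 12.68, close to the 12.38 to 12.60 of the rest phase. Across 56834 peaks, second-phase A1 correlated with rest-phase library A1 at r = 0.982 and with its own pair A2 at r = 0.825. Second-phase B1 correlated at 0.924 and 0.91 with rest-phase libraries A1 and A2, but at 0.771 and 0.778 with rest-phase B1 and B2. With its own pair B2 its r was 0.733, and with second-phase A1 it was 0.917. By these values B1 was closer to rest-phase group A than to rest-phase group B. So A1 and B1 go against the label of stimulated cells, and second-phase results are given with and without them. The first-phase libraries also went against the label of macrophages, since defining markers of other marrow cells were open: start peaks of S100a9 (neutrophils) had levels of 8.62 to 9.67 in the 4 libraries against 1.94 to 3.38 in the rest phase, and B cell peaks summed to 12.21 to 12.46 in 3 libraries and to 10.88 in library B2. Among 49 neutrophil marker peaks 0 were higher and 40 lower in the rest phase than in the first, among 56 B cell peaks 4 and 32, among 35 T and NK cell peaks 0 and 19, and among 82 macrophage peaks 36 and 3. Summed neutrophil levels ran from 12.36 to 13.28 in the first phase and from 10.37 to 10.88 at rest, and macrophage levels from 11.85 to 11.97 and from 12.72 to 13.24. A summed level is the log2 of the scaled reads added over the peaks of a list. First-phase library B2 was also the lowest for T and NK cell markers (11.05, against 11.27 to 11.32). The same held for erythroid markers (10.94, against 11.33 to 11.63), and B2 was the highest for neutrophil markers (13.28). These are bulk libraries, so fewer cells of a type and less open chromatin per cell cannot be told apart, and the part of these markers in the results below was not tested.

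The DNA just before the starts shows what the start peaks cover. RefSeq promoters (GRCm38.p6, the assembly called mm10) were matched for 6 of the 9 genes: Cebpa, Cebpb, Klf4, Mitf, Prdm1 and Tfec. The 250 bases before the start are printed 5′ to 3′ on the strand of the gene for the 3 genes whose start peak passed a test between phases (Cebpa, Cebpb and Prdm1), for Klf4, whose start peak differed between groups in the rest phase, and for Tfec as a promoter poor in CG pairs. Capitals mark a match to 1 of 9 searched motifs on either strand.
Cebpa, chr7:35119043-35119292, plus strand: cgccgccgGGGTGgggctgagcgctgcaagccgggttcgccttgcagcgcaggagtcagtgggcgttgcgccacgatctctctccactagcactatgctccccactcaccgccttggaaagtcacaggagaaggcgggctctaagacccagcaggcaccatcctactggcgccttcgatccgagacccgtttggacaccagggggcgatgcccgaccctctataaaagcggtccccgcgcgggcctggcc
Cebpb, chr2:167688665-167688914, plus strand: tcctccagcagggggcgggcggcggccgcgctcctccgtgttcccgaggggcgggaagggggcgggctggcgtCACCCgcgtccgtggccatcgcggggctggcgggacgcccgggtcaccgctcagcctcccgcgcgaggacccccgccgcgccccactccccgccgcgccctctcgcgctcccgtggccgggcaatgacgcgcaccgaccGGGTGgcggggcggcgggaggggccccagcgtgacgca
Klf4, chr4:55532476-55532725, minus strand: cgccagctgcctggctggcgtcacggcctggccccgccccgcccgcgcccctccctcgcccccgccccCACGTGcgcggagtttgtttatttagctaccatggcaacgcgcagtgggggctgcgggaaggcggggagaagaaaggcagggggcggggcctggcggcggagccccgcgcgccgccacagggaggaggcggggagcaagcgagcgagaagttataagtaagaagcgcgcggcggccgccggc
Prdm1, chr10:44458749-44458998, minus strand: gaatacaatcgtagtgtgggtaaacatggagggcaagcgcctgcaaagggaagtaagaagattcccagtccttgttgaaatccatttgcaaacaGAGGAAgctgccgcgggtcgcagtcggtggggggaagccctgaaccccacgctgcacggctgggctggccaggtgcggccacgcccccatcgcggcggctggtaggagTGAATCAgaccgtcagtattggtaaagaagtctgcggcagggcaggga
Tfec, chr6:16898442-16898691, minus strand: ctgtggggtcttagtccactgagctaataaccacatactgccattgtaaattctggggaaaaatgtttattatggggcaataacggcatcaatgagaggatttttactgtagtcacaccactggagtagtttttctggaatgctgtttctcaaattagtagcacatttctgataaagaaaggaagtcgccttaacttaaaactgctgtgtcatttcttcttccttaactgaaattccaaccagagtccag
The searched letters were GAGGAA (PU.1), TTGCGCAA and TTGCNNAA (C/EBP, the first being a case of the second), TGANTCA (AP-1), CACGTG (E-box), GAAANNGAA (IRF), GGGNNTTCC (NF-kB), CACCC (KLF) and TGCTGA (a Maf half-site). Capitals in Cebpa and Cebpb are CACCC or its reverse complement, which 52% of 32851 mouse promoter windows of this length hold. Klf4 has CACGTG (6.02% of windows). Prdm1 has GAGGAA (23.3%) and TGANTCA (6.75%), and Tfec has none of the 9. The 250 bases of Cebpa, Cebpb, Klf4 and Prdm1 hold 22, 41, 32 and 15 CG pairs and those of Tfec 2, beside a median of 6 over all windows. The deposited start peaks cover all 250 bases at Cebpa, Klf4 and Tfec, 163 at Prdm1 and 159 at Cebpb. A match is a description of letters, not a bound site.

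At their starts the genes other than Tfec were open in every phase. The Tfec start was low in first-phase libraries A1 and A2 (4.07 and 4.75). Peaks lying over an annotated start that passed the test between the first and the rest phase moved by at most 1.09 on the log2 scale. The Cebpa start peak (chr7:35119008-35119407) had levels of 7.99, 7.87, 8.04 and 8.38 in the first phase, 8.92, 8.94, 9.39 and 9.34 at rest, and 8.69, 8.29, 9.05 and 8.11 in the second (libraries A1, A2, B1 and B2 in each list). All rest-phase libraries lay above all first-phase ones, and the peak rose by 1.03 on the log2 scale (SE 0.17, limma adjusted p = 0.000266). The Cebpb start peak (chr2:167688756-167689155) had 8.71, 8.67, 7.90 and 8.07 in the first phase, then 7.29, 7.04, 7.34 and 7.04 at rest. It was lower in all 4 rest-phase libraries and fell by 1.04 (SE 0.22, limma adjusted p = 0.00151). The Prdm1 start peak (chr10:44458512-44458911) had 8.00, 7.84, 8.06 and 7.63 in the first phase, then 7.12, 7.09, 7.10 and 6.97 at rest, and fell by 0.80 (SE 0.19, limma adjusted p = 0.00415), again without overlap.

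**Figure D1:**
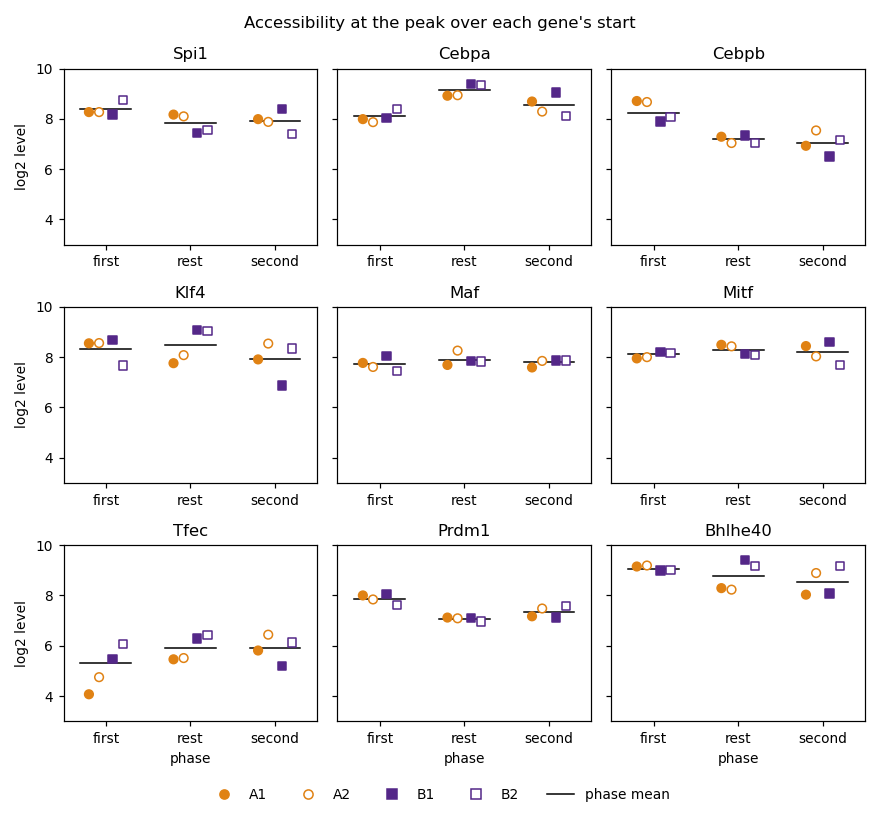
Log2 level (quantile-scaled reads plus 1) at the peak over the start of each gene, by phase; each point is a library (circles group A, squares group B, filled library 1, open library 2) and bars are phase means. Cebpa stands higher and Cebpb and Prdm1 lower in all 4 rest-phase libraries than in any first-phase library, while Maf and Mitf keep means between 7.73 and 8.28 in all 3 phases.

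Spi1 has 2 peaks over annotated starts. The downstream one (chr2:91096528-91096927) had 8.27, 8.27, 8.18 and 8.75 in the first phase, then 8.17, 8.10, 7.43 and 7.56 at rest, a fall of 0.58 (SE 0.22, limma adjusted p = 0.0484). The upstream one (chr2:91082137-91082536) fell by 1.09 (SE 0.28, limma adjusted p = 0.00717), with means of 7.10 and 6.01.

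Start peaks of the other 5 genes did not pass the test between these phases. Maf (chr8:115707744-115708143) had phase means of 7.73 ± 0.31 (SD, n = 3), 7.90 ± 0.25 and 7.79 ± 0.14 (n = 4 each) in the first, rest and second phase, and Mitf (chr6:97806760-97807159) had 8.12 ± 0.12, 8.28 ± 0.21 and 8.19 ± 0.41. Bhlhe40 (chr6:108660262-108660661) had 9.06 ± 0.10, 8.78 ± 0.60 and 8.55 ± 0.58, Klf4 (chr4:55532412-55532811) 8.31 ± 0.55, 8.50 ± 0.67 and 7.92 ± 0.75. Tfec (chr6:16898346-16898745) was the least open start, with 5.31 ± 0.84, 5.92 ± 0.51 and 5.89 ± 0.54. In the rest phase the order of means ran from Cebpa (9.15) through Bhlhe40 (8.78), Klf4 (8.50), Mitf (8.28), Maf (7.90), Spi1 (7.82), Cebpb (7.18) and Prdm1 (7.07) to Tfec (5.92). Spi1 is ranked by its downstream start peak, the more open one, and the mean of its upstream start peak lay between those of Prdm1 and Tfec. Neighbours in this order overlap in their libraries, except Spi1 above Cebpb and Prdm1 above Tfec.

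Between the first and the rest phase, 81 of the 314 peaks were higher in the rest phase, 35 were lower and 198 did not pass (limma, adjusted p under 0.05). Over all 139557 peaks tested, 19.8% were higher and 18.8% lower, and the members' shares were 25.8% and 11.1%. The median log2 difference was 0.40 for the members and 0.02 for all peaks. Of the 81 higher peaks 63% were distal intergenic and 7.41% promoters, where all higher peaks had 32.2% and 20.5%. Of the 35 lower peaks 31.4% were distal intergenic and 20% promoters, against 25% and 37.5% for all lower peaks. The 198 member peaks that did not pass were 57.6% distal intergenic and 7.07% promoters. The make-up of the higher member peaks is thus close to that of members without a call and is not particular to the rise. By gene, Mitf had 15 higher and 0 lower of 50 peaks (30% and 0%) and Tfec 3 and 0 of 16 (18.8% and 0%). Spi1 had 0 and 8 of 11 (0% and 72.7%) and Cebpb 0 and 3 of 5 (0% and 60%). Klf4 had 31 and 3 of 75 (41.3% and 4%) and Maf 18 and 6 of 80 (22.5% and 7.5%). Prdm1 had 9 and 13 of 60 (15% and 21.7%) and Cebpa 5 and 2 of 15 (33.3% and 13.3%). The higher shares of Tfec and Maf and both shares of Prdm1 lay near those of all peaks. Bhlhe40 had none. Scaled to total reads in peaks, which moves the median of all peaks to 0.31, the split was 110 higher and 19 lower.

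**Figure D2:**
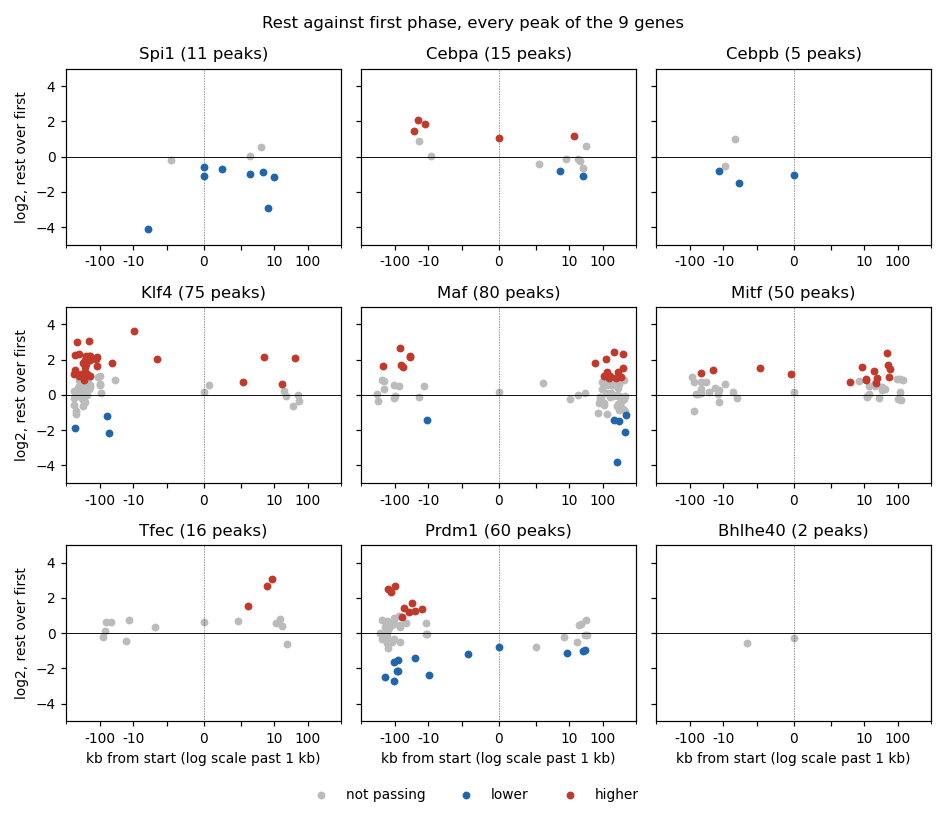
Log2 difference, rest over first phase, of all 314 peaks (vertical axis) against signed distance from the nearest start of the gene in kb (horizontal, logarithmic past 1 kb); red and blue points passed the limma test as higher and lower, grey did not. Most higher peaks near Klf4 (31 in all) lie far upstream, and 8 of 11 Spi1 peaks are blue.

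Spi1, the gene of PU.1, had 8 of 11 peaks lower in the rest phase and a median of -0.90. The largest fall was at a peak 3.5 kb upstream of the upstream start and 18.0 kb upstream of the downstream start peak (chr2:91078501-91078900). Its levels were 7.33, 7.38, 7.59 and 6.66 in the first phase, 3.64, 4.00, 2.54 and 2.14 at rest, and 3.83, 3.64, 3.82 and 2.98 in the second. All 8 later libraries lay far below the 4 first-phase ones, and the peak fell by 4.12 on the log2 scale, or 17.4-fold (SE 0.45, limma adjusted p = 7.97e-06). The peak with the smallest p, in an intron (chr2:91089012-91089411), had 7.37, 7.36, 6.98 and 8.01 in the first phase against 4.32, 4.76, 4.78 and 4.36 in the rest phase. It fell by 2.90 (SE 0.30, limma adjusted p = 6.42e-06).

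The most open Spi1 peak (chr2:91082879-91083278) lies 13.6 kb upstream of the downstream start peak, in the part of the locus that holds the upstream regulatory element, an enhancer needed for full PU.1 levels in myeloid cells and B cells. It stayed open, with first-phase levels of 8.94, 8.94, 8.58 and 9.52 and rest-phase levels of 8.54, 8.54, 8.28 and 7.88, and fell by 0.70 (SE 0.22, limma adjusted p = 0.0196). A peak 1.9 kb from the upstream start (chr2:91084314-91084713) did not pass, at 0.03 (SE 0.33), and its rest-phase libraries split by group, at 8.48 and 8.69 in A and 7.39 and 7.20 in B.

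Cebpa, which encodes a factor of the granulocyte and monocyte lineages, had 5 higher peaks, of which 3 lay upstream. The peak at -20.1 kb (chr7:35098773-35099172) had 5.98, 5.70, 5.87 and 5.39 in the first phase, then 7.92, 8.02, 7.59 and 7.63 at rest. It rose by 2.09 (SE 0.23, limma adjusted p = 8.85e-06), with every rest-phase library above every first-phase one. The peaks at -12.3 and -26.4 kb rose by 1.87 and 1.46. Downstream, the peak at 5.5 kb (chr7:35124757-35125156) fell by 0.81 (SE 0.27, limma adjusted p = 0.0285), a call lost under 6 of 15 alternatives. Scaled to total reads in peaks it was -0.24 (limma adjusted p = 0.549), and without first-phase library B2 or rest-phase library A1, A2 or B2 it was -0.66, -0.76, -0.82 and -0.78.

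Near Cebpb, 3 of 5 peaks were lower in the rest phase. The peak with the smallest p lies in an intron by the deposited annotation, at -3.4 kb (chr2:167685156-167685555). Its levels were 6.94, 7.29, 7.04 and 7.22 in the first phase, then 5.58, 5.61, 5.86 and 5.46 at rest, a fall of 1.49 (SE 0.24, limma adjusted p = 0.000203). The groups of libraries did not overlap.

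Klf4 is flanked by a wide intergenic stretch, and its 75 peaks had the largest share of higher calls (41.3%) and a median of 0.73. The largest rise among the 314 peaks was 9.2 kb upstream (chr4:55541684-55542083), where levels were 2.20, 3.26, 3.83 and 3.76 in the first phase, 7.44, 7.07, 7.04 and 6.72 at rest and 7.63, 6.99, 7.08 and 7.11 in the second. This near-closed region was open in all 8 later libraries, a rise of 3.62 or 12.3-fold (SE 0.33, limma adjusted p = 2.45e-06). The peak with the smallest p (chr4:55651065-55651464, -118.6 kb) had 6.94, 6.69, 6.97 and 6.72 in the first phase, then 8.80, 8.87, 9.12 and 9.20 at rest, and rose by 2.17 (SE 0.17, limma adjusted p = 8.99e-07). Peaks at -203.0 and -494.2 kb rose by 3.04 and 3.00. Of the 3 lower peaks, that in an intron at -53.7 kb (chr4:55586177-55586576) fell by 2.19 (SE 0.35, limma adjusted p = 0.000221). The one at -553.1 kb had 5.35, 5.23, 5.22 and 3.21 in the first phase. It was lowest in library B2, as were the summed B cell, T and NK cell and erythroid markers. This peak was chosen after its values were seen, and the part of these cell types in it was not tested.

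Maf had the most peaks, spread over up to 480.6 kb. The peak at -70.6 kb (chr8:115778431-115778830) had 4.51, 2.25, 3.68 and 3.92 in the first phase, then 6.12, 6.24, 6.48 and 6.43 at rest, and rose by 2.66 (SE 0.30, limma adjusted p = 1.01e-05). In the other direction, the peak at 262.8 kb (chr8:115444552-115444951) had 5.06, 5.60, 5.58 and 6.51 in the first phase, then 1.58, 1.94, 3.12 and 1.37 at rest. It fell by 3.81 or 14.0-fold (SE 0.47, limma adjusted p = 2.48e-05), and second-phase libraries had 1.58, 1.50, 2.95 and 3.26.

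Both MiT family genes had their smallest p in an intron. In Mitf the peak at 48.6 kb (chr6:97855706-97856105) had 5.21, 4.54, 4.32 and 3.76 in the first phase, then 6.93, 6.86, 6.37 and 6.55 at rest, and rose by 2.36 (SE 0.32, limma adjusted p = 4.57e-05). Mitf is transcribed from several starts, and the peak 0.1 kb from one inside the gene (chr6:97929314-97929713) rose by 1.17 (SE 0.41, limma adjusted p = 0.0332), while the peak over the outermost start was at 0.17 (SE 0.17). In Tfec the peak at 8.5 kb (chr6:16889474-16889873) had 2.75, 3.26, 3.38 and 3.42 in the first phase, then 6.52, 6.47, 6.16 and 6.13 at rest. It rose by 3.05 or 8.29-fold (SE 0.30, limma adjusted p = 4.11e-06), and the peak at 6.1 kb rose by 2.70 (SE 0.28). The Tfec start, at a difference of 0.61 (SE 0.39), did not pass.

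Prdm1 combined both directions in 1 upstream stretch. The peak at -97.0 kb (chr10:44625478-44625877) had 5.21, 5.08, 5.42 and 5.21 in the first phase, then 7.98, 7.56, 7.95 and 8.15 at rest, and rose by 2.65 (SE 0.23, limma adjusted p = 1.60e-06). The peak with the highest mean level of any phase, at -163.1 kb (chr10:44691577-44691976), rose by 2.48 (SE 0.27, limma adjusted p = 7.68e-06), from 5.85 ± 0.34 (SD, n = 3) to 8.33 ± 0.48 (n = 4). Nearer to the gene, the peak at -78.8 kb (chr10:44607294-44607693) had 7.02, 7.04, 7.33 and 6.84 in the first phase, then 5.23, 5.35, 4.51 and 4.52 at rest, a fall of 2.16 (SE 0.30, limma adjusted p = 6.69e-05). At -107.6 kb levels were 5.89, 5.70, 6.28 and 3.58 in the first phase, at -202.2 kb 5.79, 5.23, 6.28 and 3.21 and at -9.4 kb 5.70, 6.25, 6.31 and 4.51. In all 3 peaks, which were lower in the rest phase, library B2 was the lowest of the first phase. It was also the lowest for the summed B cell, T and NK cell and erythroid markers. These 3 peaks were chosen after their values were seen, and how often B2 was lowest was not counted. At other peaks lower in the rest phase B2 was the highest of the first phase. Examples are the Spi1 intron peak with the smallest p (8.01) and the Maf peak at 262.8 kb (6.51). B2 was also the highest for summed neutrophil markers (13.28). The part of any of these cell types in these peaks was not tested.

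**Figure D3:**
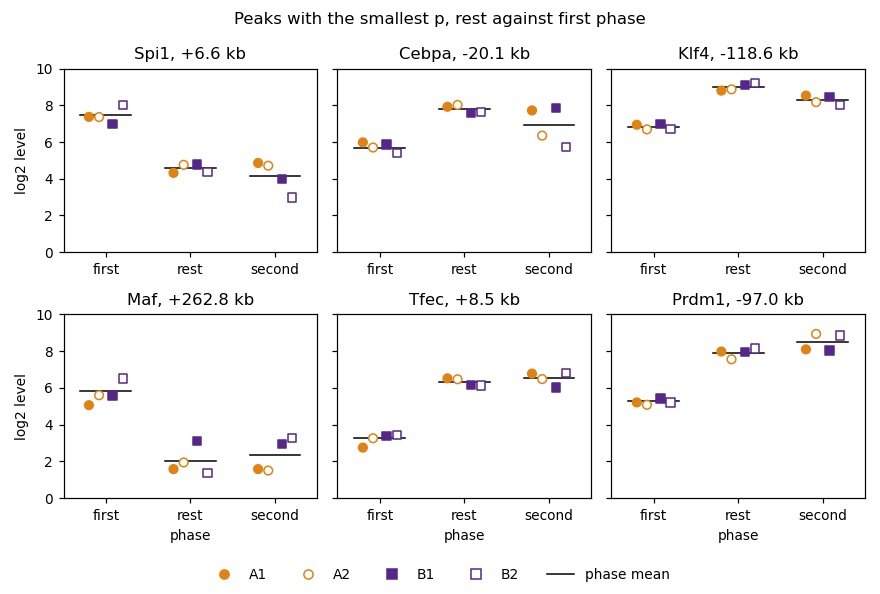
Log2 level by phase at 6 peaks with the smallest p for their gene and direction, with the distance from the start in the panel title; points are libraries as in the plot of start peaks and bars are phase means. In each panel the 4 first-phase libraries lie apart from the 4 rest-phase ones, and at the Cebpa peak second-phase libraries A2 and B2 lie below A1 and B1.

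Relatives of the 9 genes gave a background for these families. Of 416 peaks near 20 related factors, 97 were higher and 92 lower in the rest phase, with a median of 0.08, and Mafg had no peak. Among them Klf6 had 20 higher and 3 lower of 48 peaks, and Id2, an inhibitor of helix-loop-helix factors, had 6 and 0 of 7. Gfi1, a transcriptional repressor used in the neutrophil lineage, had 0 higher and 5 lower of 8. Spib, the lymphoid relative of Spi1, had 0 and 2 of 2, Tfeb 1 and 7 of 16, and Klf13 4 and 14 of 26. For the C/EBP family Cebpd had 1 and 4 of 15 and Cebpe, a neutrophil factor, 1 and 4 of 10. Irf8 had 7 and 12 of 43, and Runx1 19 and 16 of 94.

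After stimulation, 0 of 314 peaks and 0 of all peaks passed the test of the second against the rest phase with all 4 second-phase libraries (limma, adjusted p under 0.05). At an unadjusted p under 0.05 there were 51 member peaks, beside 11.4% of all peaks. The 2 libraries of either group differed in the same way. Library A2 minus A1 correlated with B2 minus B1 at r = 0.681 over the 314 peaks and at 0.756 over 56834 peaks, as a description of libraries that share depth and processing. In 24 of the 314 member peaks A2 and B2 were both more than 1 log2 unit above A1 and B1, beside 6.7% of all peaks. In 14 of the 314 both were as far below, beside 3.89% of all peaks. Both member counts lie near the shares of all peaks.

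**Figure D4:**
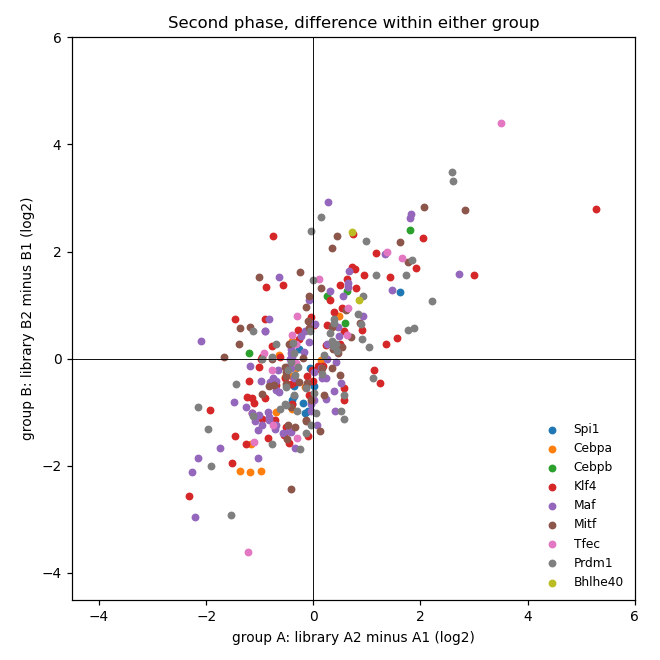
Second phase, difference between the 2 libraries of a group at each of the 314 peaks: library A2 minus A1 on the horizontal axis and B2 minus B1 on the vertical, both in log2 units and coloured by gene. Points lie along the rising diagonal (r = 0.681), with a Tfec and a Klf4 peak at the upper right.

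Without second-phase libraries A1 and B1, 41 member peaks were higher than in the rest phase, 22 lower and 251 not passing (limma, adjusted p under 0.05, n = 2 against 4). Over all peaks 9.2% were higher and 5.98% lower. Because the libraries left out were picked by their signal, these values describe libraries A2 and B2 and are not a test of the labelled stimulation. Of the 81 peaks higher in the rest than in the first phase, 6 were higher again and 15 lower here, and of the 35 lower ones 3 were higher and 0 lower. Both comparisons use the same rest-phase libraries, which by itself favours opposite directions. The matching counts over all peaks were not made, so no reversal is read from these numbers. Without A2 and B2 in place of these, 0 peaks passed by limma, with 8596 at an unadjusted p under 0.05.

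Of the 41 higher peaks, Klf4 held 13, Prdm1 11, Maf 8, Mitf 6 and Bhlhe40, Cebpb and Tfec 1 each. A peak downstream of Klf4 (chr4:55511353-55511752) had 1.58, 2.32, 2.82 and 2.14 at rest and 1.58 (A1), 6.86 (A2), 3.82 (B1) and 6.62 (B2) in the second. It was near-closed in all rest-phase libraries and open in A2 and B2, a difference of 4.50 (SE 0.42, limma adjusted p = 0.000206). A Tfec peak in the 3′ UTR by the deposited annotation (chr6:16834237-16834636) had 3.64, 3.50, 2.54 and 3.21 at rest and 3.42, 6.92, 2.95 and 7.35 in the second, a difference of 3.90 (SE 0.38, limma adjusted p = 0.000232). Near Prdm1 the peak at -45.6 kb (chr10:44574123-44574522) had 3.64, 3.36, 3.36 and 4.30 at rest and 4.25, 6.83, 3.45 and 6.93 in the second, a difference of 3.2 (SE 0.35, limma adjusted p = 0.000382).

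The same 2 libraries stood apart at smaller loci. In Mitf a peak 5.2 kb before an inner start (chr6:97924247-97924646) had 4.26, 4.04, 4.35 and 3.38 at rest and 4.03, 6.87, 3.99 and 6.76 in the second. The Cebpb peak at -4.5 kb (chr2:167684004-167684403) had 4.42, 3.94, 5.14 and 4.45 and then 4.40, 6.21, 4.18 and 6.57, so B1 and A1 stayed in the range of the rest phase at both peaks.

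Cebpa went the other way, with 0 higher and 3 lower peaks of 15. Its start peak was at 8.29 (A2) and 8.11 (B2) against 8.69 (A1), 9.05 (B1) and 8.92 to 9.39 in the rest phase, a difference of -1.0 (SE 0.20, limma adjusted p = 0.00722). The peak at -20.1 kb had 6.35 and 5.74 in A2 and B2, 7.72 and 7.84 in A1 and B1, and 7.59 to 8.02 in the rest phase, a difference of -1.80 (SE 0.25, limma adjusted p = 0.00131). Both Cebpa peaks rose between the first and the rest phase, as given above, in a comparison that shares the rest-phase libraries with this one. Klf4 peaks at -208.9, -279.2 and -538.2 kb were lower by 2.03, 1.61 and 1.73. None of 11 Spi1 peaks passed in this comparison.

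Within the first phase the authors' deposited table called 0 of 139999 peaks between A and B at an adjusted p under 0.05. Limma on quantile-scaled reads called 0, with 5618 of 139557 at an unadjusted p under 0.05. Libraries A1 and A2, which differed by little more than counting error (1.13 times its variance), were not averaged in this test. When B1 is left out, their difference is the only scatter within a group. Calls from that fit therefore measure B2 against counting error and do not test group A against group B. Without first-phase library B1, which leaves B2 as the single library of its group, limma called 2 member peaks higher and 2 lower in A, beside 1.41% and 0.412% of all peaks (1961 and 575).

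In the rest phase the authors' deposited table called 170 of the 314 peaks higher in group A and 0 lower (54.1%, against 39.7% of all peaks). The split moved with the scaling: the median of all peaks is 1.31 on the log2 scale under the submitters' scaling and -0.02 with quantile-scaled reads. With limma on quantile-scaled reads 44 member peaks were higher in A, 14 lower and 256 not passing, beside 7.27% and 6.23% of all peaks. With B1 or B2 left out, which leaves 1 library in group B, limma called 0 of all peaks, while 36778 and 48864 had an unadjusted p under 0.05, against 41798 with both. The summed log2 level of the macrophage marker peaks also differed, being 13.24 and 13.14 for A but 12.72 and 12.82 for B, with neutrophil markers at 10.37 and 10.42 against 10.88 and 10.71. The part of depth and of these markers in the result was not tested.

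With quantile scaling, promoter and distal peaks of the 9 genes divided between the groups. Of 176 distal intergenic peaks 35 were higher in A and 4 lower (19.9% and 2.27%, against 7.85% and 5.00% of all distal peaks). Of 27 promoter peaks 3 were higher and 7 lower (11.1% and 25.9%, against 5.47% and 11.1% of all promoter peaks). In the authors' deposited table this division was not present, with 97 distal peaks higher in A and 0 lower, and 13 promoter peaks higher and 0 lower.

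Maf had 21 of the 44 higher peaks and 2 of the lower. At 213.1 kb (chr8:115494337-115494736) group A had 8.87 and 8.58 at rest and group B 6.51 and 6.62, a difference of 2.16 (SE 0.16, limma adjusted p = 0.000144). First-phase libraries had 4.71 to 5.56 there. The peak at 57.2 kb (chr8:115650215-115650614) had 8.05 and 8.69 in A and 6.25 and 6.28 in B, a difference of 2.11 (SE 0.21, limma adjusted p = 0.000425). In the second phase this peak had 7.80 (A1), 5.58 (A2), 8.31 (B1) and 5.37 (B2), so A1 and B1 were near rest-phase group A.

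Klf4 had 8 higher and 6 lower peaks in A with quantile scaling, and position divided them, but the authors' deposited table has 34 higher and 0 lower. Of the 6 lower peaks all but the one at -522.6 kb lay within 5.0 kb of the start. Its start peak had 7.76 and 8.08 in A and 9.09 and 9.04 in B (-1.14, SE 0.14, limma adjusted p = 0.000943), and a peak 5.0 kb downstream of the start (chr4:55526408-55526807) had 5.45 and 4.84 against 7.19 and 7.04 (-1.97, SE 0.25, limma adjusted p = 0.00121). The 8 higher peaks all lay between -199.5 and -284.6 kb. There the peak at -208.9 kb had 7.89 and 7.81 in A and 6.60 and 6.86 in B (1.12, SE 0.17, limma adjusted p = 0.00257).

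The Bhlhe40 start peak showed the same direction as that of Klf4, with 8.29 and 8.23 in A and 9.41 and 9.18 in B (-1.03, SE 0.12, limma adjusted p = 0.000887), where first-phase libraries had 8.99 to 9.19. Under the submitters' scaling the authors' deposited table gives this peak means of 8.97 in A and 8.77 in B, and the Klf4 start peak 8.72 and 8.55, so the direction at both starts turns with the scaling. Spi1 had 2 higher peaks in A, its downstream start (8.17 and 8.10 against 7.43 and 7.56, a difference of 0.64, SE 0.14, limma adjusted p = 0.0155) and the peak 1.9 kb from the upstream start (1.29, SE 0.15, limma adjusted p = 0.000809). Prdm1 had 7 higher and 0 lower, among them a peak in an exon at -73.6 kb with 7.14 and 6.51 in A against 4.20 and 5.07 in B (2.19, SE 0.33, limma adjusted p = 0.00258).

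**Figure D5:**
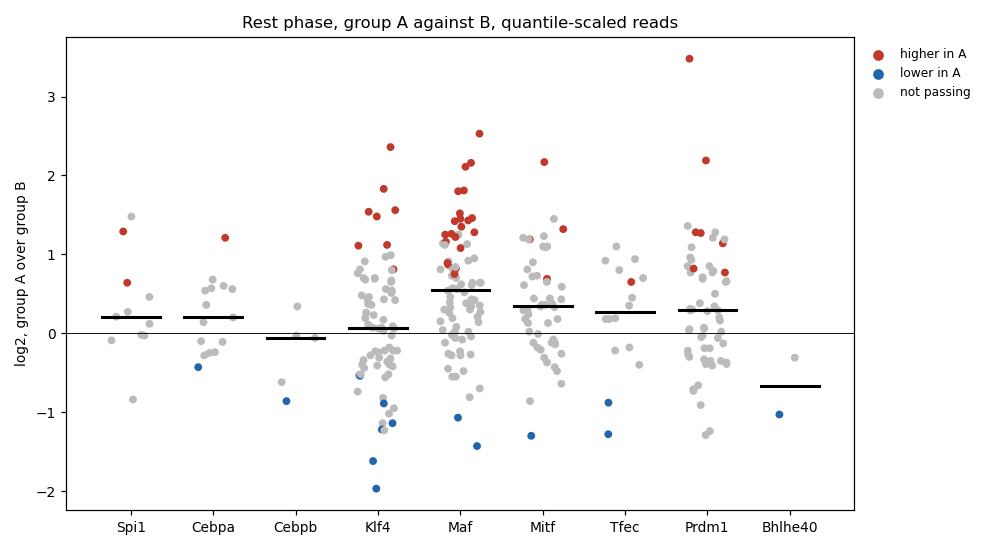
Rest phase, log2 difference of group A over group B with quantile-scaled reads at each of the 314 peaks, by gene; red and blue points passed the limma test as higher and lower in A, grey did not, and bars are medians. Maf has the most red points (21 of 80), and Klf4 has points on both sides.

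In the second phase the authors' deposited table called 101 of 314 peaks higher in A and 0 lower (32.2%, against 26.7% of all peaks). With limma on reads 0 member peaks passed under any of the 3 scalings, and 1039 of 139557 peaks had an unadjusted p under 0.05 with quantile scaling.

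Among 11357 start peaks of other genes, those most like each member over the 12 libraries were, by Pearson's r, Msl3l2 (0.991) and Nr2e3 (0.978) for Cebpa, Dtnb (0.984) for Cebpb, Pgap2 (0.944) for Spi1, Yipf5 (0.972) for Klf4, Gpr146 (0.972) and Tfrc (0.960) for Prdm1, Mpdu1 (0.978) for Bhlhe40, Cdc20 (0.953) for Mitf and Lonrf3 (0.929) for Tfec. Maf had Ptma at 0.917 and then Ccnb1ip1 at 0.781. The 12 points share phases, libraries and depth.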

How the data were processed

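Per the submitters' processing notes, the ATAC-seq data are on mm10, and the tools named, with no role or order, are HOMER 5.1, DESeq2, DiffBind 3.14.0, Bowtie2 2.5.4, bedtools 2.28.0, MACS2, Picard 3.2.0 and deepTools 3.2.1. The authors deposited 1 table for each of 3 phases over the same 139999 peaks, with the log2 mean of normalized reads in group A and in group B, a shrunken log2 fold, a p-value and an adjusted p-value, per the file headers. Those log2 means fix the whole reads of both libraries of a group, which were recovered in 139557 peaks. The other 442 peaks were left out because a mean sat at the floor. Library numbers 1 and 2 come from the scaling of each library and do not match the replicate numbers of the labels. In simulated tables of 20000 peaks 100% of read pairs came back.

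Phases were compared with limma 3.58.1 (R 4.3.3) on log2(quantile-scaled reads + 1), with an intensity trend and Benjamini-Hochberg adjustment over all 139557 peaks, groups A and B pooled. On simulated data with 100 peaks planted per fold, the test of the rest against the first phase called 72% of 4-fold and 1% of 2-fold changes. For the second against the rest phase the shares were 79% and 7%. Far fewer peaks changed in the simulation than were called between the first and the rest phase (27663 higher and 26239 lower). The adjustment was therefore stricter there, and these shares do not give the share of changes missed in the data. Apart from depth and planted changes, simulated libraries shared 1 mean per peak, with a dispersion of 0.1. The split of second-phase A1 and B1 from A2 and B2 and the differences between rest-phase groups were thus absent. For the second against the rest phase the shares therefore do not show what the test could detect. Within phases the authors' deposited adjusted p-value was the main call and limma on recovered reads the alternative. Depth in peaks ran from 3832347 to 18617444 reads, which sets the counting precision.

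Named for each gene were the peak nearest the start, that with the highest mean level and, per comparison and direction, that with the smallest p. Other peaks were chosen after their values were seen, as was the leaving out of pairs of second-phase libraries. Genes and lists were chosen with earlier results of these data known. Alternatives were other scalings, a pseudocount of 4, a minimum mean of 10 reads, 1 model over 3 phases and leaving out each library.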

Additional observations from a re-analysis of the deposited data

How the results depend on the processing

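No paired analysis was possible because the recovered libraries are not tied to the labels' replicate numbers, and the fit with a replicate block was not run. Rest against first phase gave 58 to 110 higher and 24 to 38 lower member peaks, except that scaling to total reads gave 19 lower (with 110 higher). Leaving out 1 library gave 58 to 88 higher and 24 to 36 lower. Of the 12 peaks with the smallest p for their gene and direction, 11 kept direction and call in all 15 alternatives, and the Cebpa peak at 5.5 kb kept its direction in 15 and its call in 9. Second against rest phase gave 0 calls, except 41 higher and 22 lower without second-phase libraries A1 and B1, an alternative added after seeing the data. For the first-phase groups, the fit without library B1 takes its scatter from A1 and A2 alone, as given above. Between A and B in the first phase, leaving out 1 library gave 0 to 2 calls in each direction. In the rest phase, peaks higher in A numbered 170 as deposited, 91 at a deposited adjusted p under 0.01, 44 with limma and quantile scaling, 76 with total reads, 219 with the submitters' scaling and 0 to 22 leaving out 1 library. Lower peaks numbered 14 with quantile scaling, 14 with total reads and 0 to 6 leaving out 1 library. In the second phase the 101 deposited calls became 0 at a deposited adjusted p under 0.01, 0 by limma under each of 3 scalings, and 0 to 0 leaving out 1 library. The cause was not tested. Depth of 3832347 reads in the shallowest library limits peaks of few reads most.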
